A study of Rattus norvegicus with 6 samples.

Results

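Peaks that the authors placed in an intron numbered 2 or higher were examined in PC12, a cell line from a rat tumour of adrenal chromaffin cells, which arise from the neural crest. They were the rows of the authors' annotated table whose feature was an intron other than the one numbered 1, and 21572 of the 159452 annotated peaks met this rule (13.5%, exact 95% binomial interval 13.4 to 13.7). For comparison, 4275 peaks (2.68%) lay in an intron numbered 1 and 118896 (74.6%) were distal intergenic. Intervals on shares cover counting error only.

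The measurement was chromatin immunoprecipitation and sequencing (ChIP-seq), in which DNA crosslinked to a protein is recovered with an antibody and read. All cells were PC12 at passages 18 to 20, crosslinked with 1% formaldehyde for 10 min. One line stably expressed human α1ACT (titled Q11 in the labels), a transcription factor translated from the mRNA of the calcium channel gene CACNA1A, and the control line carried the pCDNA3 vector (titled EV). Each line gave 1 library with M2, an anti-FLAG antibody, 1 with an antibody labelled 1804, whose target the labels do not state, and 1 input. Whether each line is a single clone is not stated. The table describes peaks of the α1ACT 1804 library that neither empty-vector list holds. That contrast therefore belongs to the rule: 161536 of the 161730 peaks of the α1ACT 1804 list (99.9%) were in neither empty-vector list, and nothing is read from it here. The empty-vector lists hold only 272 peaks with 1804 and 244 with M2. At most a small part of the 161730 peaks could have been in them, so the 99.9% does not measure specificity. Each group had 1 library, so replicate error could not be measured and no tests were run.

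An intron is the part of a transcript that splicing removes. The first intron, next to the transcription start site (TSS), is the one best known for holding promoter-proximal regulatory sequence, whereas introns further along hold scattered enhancers, start sites of shorter transcripts, microRNA genes and large amounts of repeated sequence. In genes of the nervous system introns are often very long.

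The number in the annotation did not mean the same thing on both strands. Among transcripts with peaks under at least 2 different intron numbers, the numbers rose with distance from the TSS in 1154 of 1154 on the plus strand and fell in 1132 of 1132 on the minus strand. On the plus strand, peaks in introns numbered 1 had a median position 21.5% of the way from the TSS to the gene end. On the minus strand that position was 85.9%, and peaks under the last number lay at 21.8%. The deposited numbers thus run along the chromosome, and on the minus strand the highest number belongs to the first transcribed intron.

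**Figure D1:**
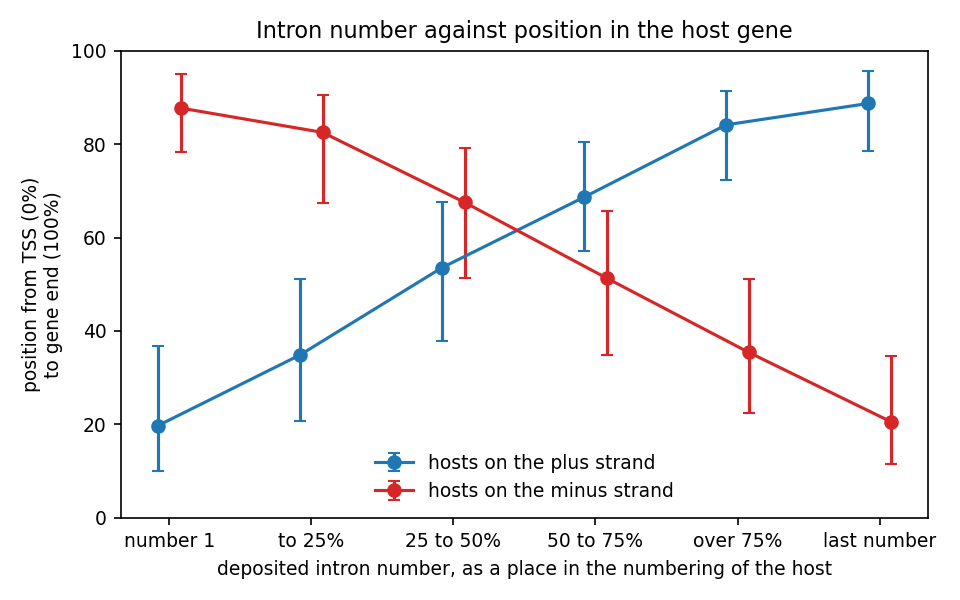
Position of intron peaks within the host gene, in percent of the way from the TSS to the gene end (vertical axis), by place in the deposited intron numbering (horizontal axis), for host transcripts with 4 or more introns. Points are medians and bars the quartiles; the plus-strand medians climb from 19.7% to 88.7% and the minus-strand medians descend from 87.7% to 20.6%.

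The strand of the host was known for 21105 of the 21572 peaks, 9724 on plus-strand and 11381 on minus-strand genes. Counted in the direction of transcription, 18784 of them (89.0%, 88.6 to 89.4) lay in a later intron and 2320 (11.0%, 10.6 to 11.4) in the first. The remaining peak carries the number 22 of 21. Conversely, 1013 of the 4275 peaks numbered 1 (23.7%, 22.4 to 25) were in a later intron once direction was taken into account. The peaks described here are therefore called later-numbered, after the rule, and "in transcription order" marks counts that take the strand into account.

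By deposited number the peaks spread widely. The median number was 7 (quartiles 4 and 12) and the highest 104, in transcripts with a median of 13 introns. Intron 2 held 2887 peaks (13.4%) and the last number 3271 (15.2%, 14.7 to 15.6). The last number held 20.4% of the peaks on minus-strand hosts (19.6 to 21.1) and 8.77% on plus-strand hosts (8.22 to 9.35). In transcription order the median number was 4, and 3677 of the 21105 peaks with a known strand (17.4%) lay in the second transcribed intron. The last transcribed intron of a minus-strand gene is the one numbered 1, so the rule leaves it out. When all introns after the first in transcription order were taken instead, on both strands, 19.3% of the peaks lay in intron 2 and 9.43% in the last intron.

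Along the host gene the peaks were close to evenly spread. In 1534 host transcripts of at least 100 kb, with 16888 intron peaks of any number, 10 equal stretches from the TSS to the end of the gene each held between 8.60% and 10.7% of them. The lowest share was in the first stretch (8.60%, 8.19 to 9.04), where the annotation gives peaks within 3 kb of a TSS to the promoter class, and the next lowest in the last (9.12%, 8.69 to 9.56). The first stretch was also the lowest on each strand, with 8.81% on plus and 8.39% on minus. The shares did not move steadily between the second stretch (10.7%) and the ninth (10.3%).

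Signal, the authors' own value per peak, was low in most later-numbered introns. It ran from 2.00 to 899 with a median of 3.00 (binomial interval of the median 3.00 to 3.02), and 99% of the peaks lay below 8.09. First-numbered introns had a median of 3.00 (2.99 to 3.10), distal intergenic peaks 2.98 and promoter peaks 4.03. Of all annotated peaks, 15946 (10.0%) were at or above 5.28, the limit of the upper 10%. Later-numbered introns had 1813 such peaks (8.40%, 8.04 to 8.78), below that background, first-numbered introns 373 (8.73%, 7.90 to 9.61), distal intergenic peaks 7.89% (7.73 to 8.04) and promoters 32.5%. The share in later-numbered introns thus lay within the counting error of that in first-numbered ones, and above the intergenic one by less than 1 percentage point. With peaks up to 1 kb apart merged and given their highest signal, 11.2% of later-numbered intron peaks were at or above the same limit, beside 13.8% of all merged peaks and 11.4% of intergenic ones, so the small difference from intergenic peaks turned. A signal of 10 or more was reached by 81 peaks (0.375%) and one of 20 or more by 9.

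**Figure D2:**
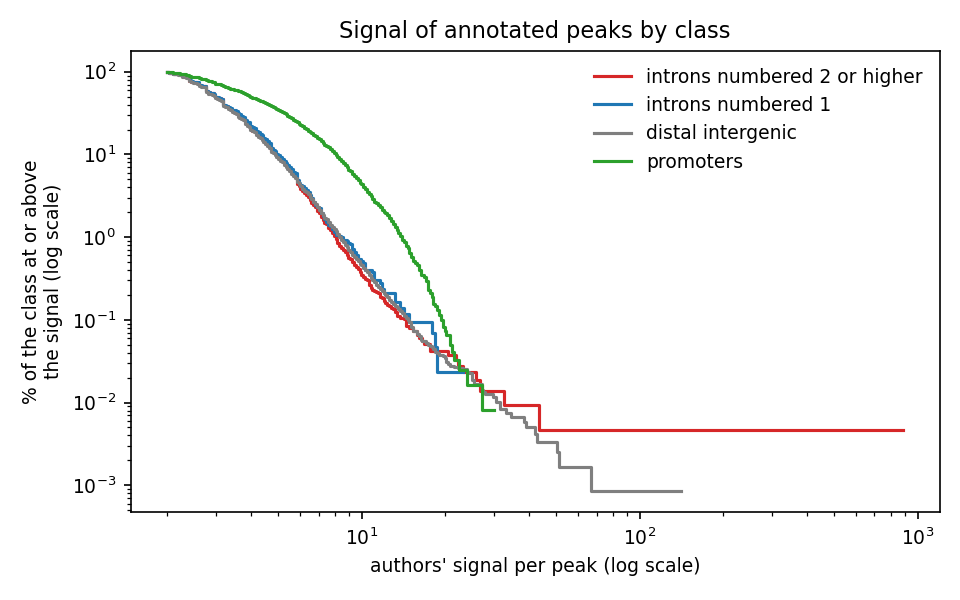
Share of the annotated peaks of a class (vertical axis, percent, log scale) at or above a given signal (horizontal axis, authors' value, log scale). Later-numbered introns follow first-numbered introns and distal intergenic peaks, promoters lie above them through most of the range up to a signal of 20, and the flat red line on the right ends at the single peak in Tbcd at 899.

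Signal was higher nearer to a TSS. Within later-numbered introns the median signal was 3.18 at 3 to 10 kb from the nearest annotated TSS, 3.08 at 10 to 30 kb, 3.00 at 30 to 100 kb and 2.98 beyond 100 kb. The share in the upper 10% went from 11.3% (9.99 to 12.8) in the nearest bin through 9.62% and 8.33% to 6.95% (6.39 to 7.55) in the farthest. With neighbours within 1 kb merged, the medians of the nearest and farthest bins were both 3.18, and the shares 13.2% (11.6 to 14.9) and 10.05% (9.22 to 10.9). First-numbered introns gave 11.2%, 9.29%, 8.11% and 6.98% in the same bins. Distal intergenic peaks gave 9.86%, 9.28%, 8.53% and 7.31%.

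With introns counted in transcription order the classes still overlapped at like distances. First introns had 10.9% of their peaks in the upper 10% at 3 to 10 kb (9.19 to 12.9) and later introns 12.02% (10.5 to 13.7). At 10 to 30 kb the shares were 9.54% and 9.57%, and at 30 to 100 kb 8.20% and 8.21%. Beyond 100 kb they were 8.10% (6.52 to 9.91) and 6.79% (6.24 to 7.38), again with overlapping intervals. Over all distances first introns had 9.14% (8.39 to 9.94) and later introns 8.25% (7.87 to 8.64). On minus-strand hosts these were 9.67% and 8.32%, and on plus-strand hosts 8.71% and 8.18%.

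**Figure D3:**
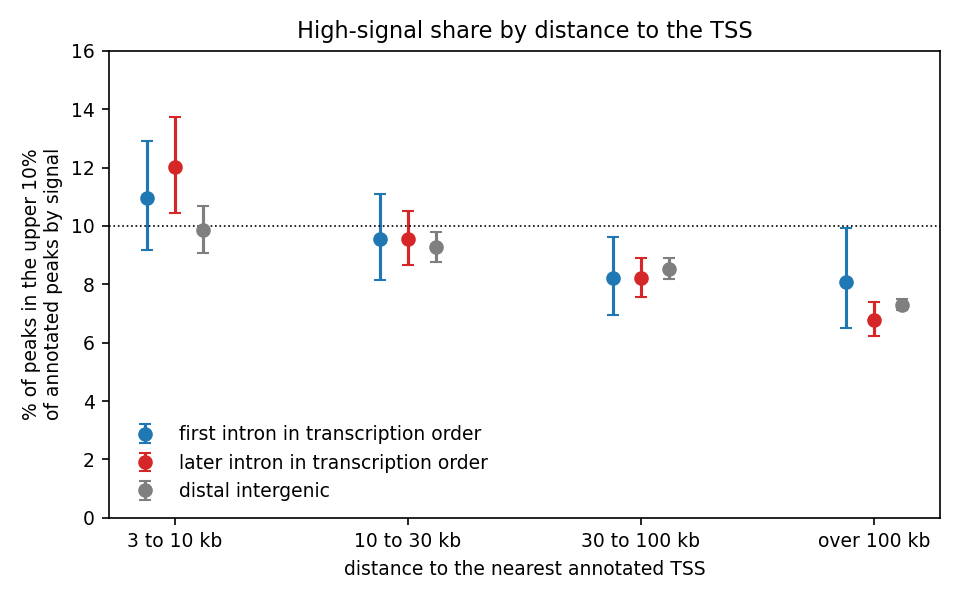
Percent of peaks in the upper 10% of annotated peaks by signal (vertical axis) against distance to the nearest annotated TSS (horizontal axis), for first and later introns in transcription order and for distal intergenic peaks. Bars are exact 95% binomial intervals and the dotted line is the 10% of all annotated peaks; each class declines with distance, and the intervals of first and later introns overlap in each bin.

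One site stood apart among the later-numbered intron peaks. On chromosome 10 from 110277977 to 110278032 (rn5), in intron 13 of 38 of Tbcd, which encodes a cofactor that folds tubulin and is on the plus strand, the signal was 899 in the α1ACT 1804 library. The site had 371 with M2 in the same line, on a scale whose relation to the other library is not stated. Its absence from the empty-vector lists belongs to the rule. At other sites those lists ran from 14.0 to 788 with 1804 and from 19.0 to 377 with M2, so the control line also had values of this size. Of the 21572 later-numbered intron peaks this was the only one that overlapped a peak of the α1ACT M2 list by at least 1 bp. That list holds only 81 peaks, with a lowest signal of 53.6, beside 161730 in the α1ACT 1804 list. Few of the later-numbered intron peaks could therefore overlap it, and the count does not compare the antibodies. The next highest signal among later-numbered intron peaks was 43.4, so the site exceeded it 20.7 times. Peaks shared with the empty-vector lists were already left out of this ranking. The 11 other peaks in Tbcd introns ran from 2.01 to 6.09, and the nearest of them lay 11.5 kb from the site. No other Tbcd peak came near its signal.

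After Tbcd the highest signals were spread over genes on several chromosomes. March8, which encodes a membrane-bound ubiquitin ligase, had 43.4 (chr4:214315523-214315578) in intron 3 of 7. Armc8, a subunit gene of a ubiquitin ligase complex, had 32.9 on chromosome 8 from 107231908 to 107231963. Its deposited label is intron 21 of 21, but the gene is on the minus strand and the peak lies in its first transcribed intron, 12.01 kb from the TSS. Galntl5, of the family of enzymes that start O-linked glycosylation, had 26.6, and Nlgn1, the postsynaptic adhesion gene neuroligin 1, had 25.8 at 695 kb from the TSS. The host known only by the placeholder symbol LOC681766 had 23.2. Vom2r30, a vomeronasal receptor gene, had 22.4 and Lrp1b, a very large lipoprotein receptor gene, 21.9. Vomeronasal receptors form a multigene family in which reads can be shared, so that peak is uncertain. Ccdc150 had 20.6, the transcriptional coregulator Zmiz1 17.7 and the homeobox gene Meis1 17.6. The Meis1 peak is labelled intron 11 of 12 but is intron 2 in transcription order, 3.50 kb from the TSS.

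The nearest gene was often not the host. For 6307 of the later-numbered intron peaks (29.2%, 28.6 to 29.8) the table assigned a gene other than the one whose intron held the peak, against 1013 of the first-numbered ones (23.7%, 22.4 to 25). The March8 peak was assigned to Alox5, the Galntl5 peak to Galnt11, the Ccdc150 peak to Gtf3c3 and the Zmiz1 peak to Mir3075. Host genes are used below, and a reading by assigned gene would place these peaks elsewhere.

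Some of the assigned genes were microRNA genes. They were nearest for 398 peaks (1.84%), and in 309 of these the microRNA lay inside the host's gene model. The share over all annotated peaks is not given here, so the 1.84% is not read as high or low. These 309 peaks fell in 42 hosts with 46 microRNA genes. Host and microRNA can be transcribed together. Among the 20 of these peaks nearest to their microRNA, at 3.35 to 11.2 kb, the signal ran from 2.05 to 6.53. Of these 20 peaks 3 reached the upper 10%, too few to set against the 8.40% of all later-numbered intron peaks. The mature microRNAs of 4 of these pairs are shown: the nearest pair, one of the 3 strongest, and the hosts Pank1 and Slit3, whose roles are well known. They were chosen after their values were seen. Sequences are RefSeq's (GRCr8), 5′ to 3′, with the seed, bases 2 to 8, in capitals.
miR-3542: aAGGCUCUucuuuccuugcag
miR-1306-5p: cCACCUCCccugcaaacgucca
miR-107-3p: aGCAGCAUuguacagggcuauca
miR-218a-5p: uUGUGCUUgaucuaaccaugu
The 4 seeds differ from each other. Txndc15, the host nearest to its microRNA, had a peak of signal 3.91 at 3.35 kb from Mir3542. Dgcr8, which encodes a subunit of the complex that cuts microRNA precursors, had 6.32 at 10.8 kb from Mir1306. Pank1, a pantothenate kinase gene that hosts Mir107, had 2.78 at 5.31 kb and 3.87 at 7.18 kb. Slit3, an axon guidance ligand gene that hosts Mir218-2, had 2.43 at 7.62 kb. The other peaks in the upper 10% were 6.53 near Mir1249 in the placeholder-named RGD1304694 and 5.47 near Mir339 in LOC498154.

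The 21572 peaks fell in 4783 host genes. A host had a median of 2 (quartiles 1 and 4), 2096 hosts had a single peak (43.8%), and 521 hosts with 10 or more held 11756 peaks (54.5%, 53.8 to 55.2). The 100 hosts with the most held 23.1%. Of 18539 protein-coding genes that RefSeq gives a curated mRNA, 4738 (25.6%) were hosts. Of these hosts 2111 (44.6%, 43.1 to 46.0) also had a peak within 1000 bp of the TSS, against 3985 of the other 13801 genes (28.9%, 28.1 to 29.6). Hosts with a known model had a median length of 59.3 kb, against 17.0 kb over all genes of the annotated table, and gene length was not matched in this comparison.

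Gene length went with the number of peaks. Across 14390 genes of the annotated table, length and later-numbered intron peaks had a Spearman's rho of 0.65, a description across genes of 1 library that are not independent. A host share of 8.40% below 20 kb became 43.2% at 20 to 50 kb, 68.0% at 50 to 100 kb, 84.8% at 100 to 300 kb and 97.5% (95.5 to 98.8) above 300 kb. Per length the range was narrower: 1.4996 peaks per 100 kb of gene in the shortest class, then 2.53, 2.83 and 2.99, and 3.64 in the longest, with 2.99 over all genes. The length is that of the whole gene, with exons, intron 1 and sequence within 3 kb of the TSS, where no such peak is counted. How far this shapes the rise with length was not tested. Genes without any assigned peak are not in the table and were not counted. Inside the gene models of the table lay 49.8 annotated peaks of any class per Mb, and outside them 57.0.

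The hosts with the most peaks were of 2 kinds. Several were very long genes, many of them neuronal, at 4 to 9 peaks per 100 kb. Lrp1b had 103 peaks in 2135 kb (4.82 per 100 kb), Dlg2, a postsynaptic scaffold gene, 102 in 2108 kb (4.84) and Nrxn3, a presynaptic adhesion gene, 87 in 1926 kb (4.52). Il1rapl2, of the interleukin receptor accessory family, had 88 in 1557 kb, and Cntnap5c, of the neurexin superfamily, 94 in 1210 kb (7.77 per 100 kb). Sugct had 92, Hpse2 85 and Chat, the acetylcholine-synthesising enzyme gene, 88 over a deposited model of 2159 kb. Whether that model is a correct one was not tested, and the Chat count is uncertain for that reason. Others were denser: Sult1c2a, a sulfotransferase gene, had 150 in 526 kb (28.5 per 100 kb) and Stpg2 101 in 527 kb (19.2).

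**Figure D4:**
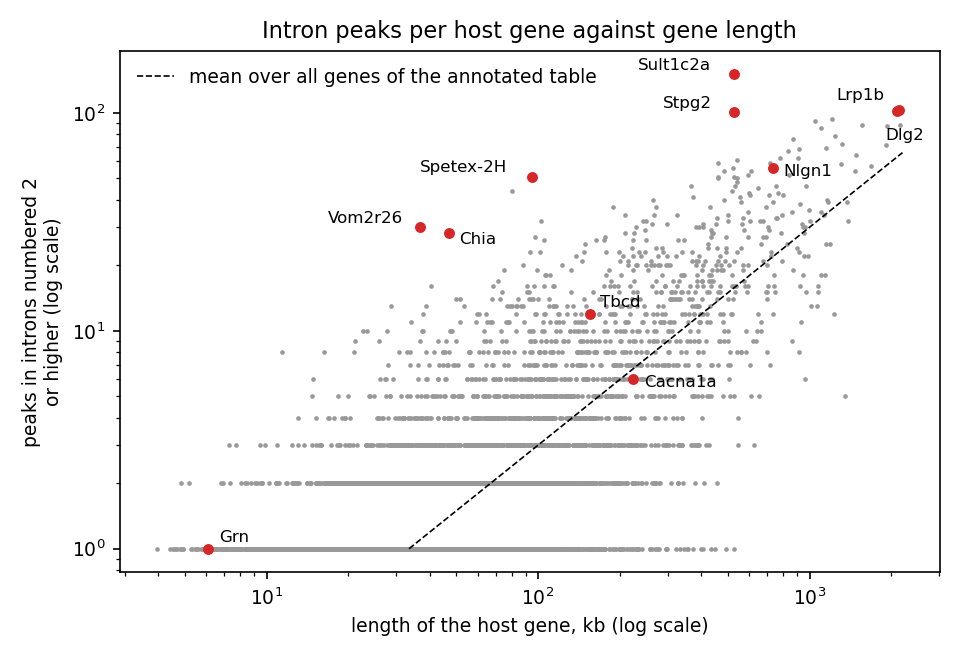
Later-numbered intron peaks per host gene (vertical axis, log scale) against the length of the host in kb (horizontal axis, log scale), each point 1 host with all its peaks inside 1 known gene model. The dashed line is the mean of 2.99 peaks per 100 kb over all genes of the annotated table; Lrp1b (4.82 per 100 kb) and Dlg2 (4.84) lie above it, and Sult1c2a, Stpg2, Spetex-2H, Chia and Vom2r26 far above it.

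Per length, members of multigene families led. Among 506 hosts with 10 or more peaks and a known model, the median was 6.19 per 100 kb (quartiles 3.96 and 10.2). The 5 highest were Vom2r26 with 30 peaks in 36.7 kb (81.6 per 100 kb), the chitinase gene Chia with 28 in 47.0 kb (59.5), Spetex-2H with 51 in 95.4 kb (53.4), the pregnancy-specific glycoprotein gene Psg29 with 10 in 23.4 kb (42.8) and the cytochrome P450 gene Cyp3a9 with 16 in 40.3 kb (39.7). All 5, and Sult1c2a, have close relatives in the genome among which reads can be split, so these counts are uncertain. Their highest signals ran only from 4.67 in Psg29 to 12.1 in Sult1c2a. Vomeronasal receptor hosts as a whole held 425 peaks (1.97%).

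Neighbouring peaks formed short runs. Another peak of the list lay within 1 kb of 9388 later-numbered intron peaks (43.5%, 42.9 to 44.2), against 42.4% (40.9 to 43.9) in first-numbered introns and 55.7% (55.4 to 55.96) in distal intergenic ones. The median distance to the nearest peak was 1702 bp, and the smallest 143 bp. Joining neighbours up to 1 kb apart gave 61 runs of 10 or more later-numbered intron peaks, with 678 peaks in all, in 59 hosts. These runs were of like length, 3182 to 8774 bp with a median of 5105 bp (quartiles 4632 and 5427). The mean spacing within a run was between 347 and 597 bp, with a median of 496 bp. Runs of 10 or more distal intergenic peaks numbered 405, with a median length of 5133 bp and a median spacing of 491 bp. The medians were close, but intergenic runs reached further, with up to 32 peaks and 17002 bp. The minimum of 10 peaks and the 1 kb joining distance limit both quantities in either class.

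The longest run lay in Sult1c2a on chromosome 9 from 3660578 to 3669351, with 19 peaks. Nlgn1 had one of 17 peaks on chromosome 2 from 130810942 to 130817625, which includes its highest-signal peak. Runs of 14 lay in Rttn, a centriole gene, from 85129582 to 85135217 on chromosome 18, in Thsd7b, in Slf1, a DNA repair gene, and in the placeholder-named RGD1562608. Dpyd, the pyrimidine-degrading enzyme gene, Efhb and the transcription factor gene Zbtb20 had runs of 13. The synaptic active zone gene Rims2, the potassium channel gene Kcnh7 and the protocadherin gene Pcdh15 had runs of 12, among others. The highest signal inside these runs was between 3.97 in Dpyd and 25.8 in Nlgn1. These genes were chosen after their values were seen. The DNA sequence of the runs was not used here.

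Of 18 gene lists, synaptic and neuronal adhesion genes had the most later-numbered intron peaks per length. Of 48 synaptic and neuronal adhesion genes 36 were hosts (75%, 60.4 to 86.4), with 858 peaks and 3.99 per 100 kb of gene, beside 25.6% and 2.99 over all genes. Their median length was 437 kb, and length went with both values: among all genes of the table over 300 kb, 97.5% were hosts, with 3.64 per 100 kb. Counted likewise among genes of the table, 87.8% of the list were hosts. Nlgn1 had 56 peaks up to 25.8 and Cntnap5c 94 up to 8.16. Other genes of very long span, a list of scaffold, tumour suppressor and metabolic genes, had 27 hosts of 34 (79.4%) and 3.86 per 100 kb. Lrp1b led it in number and signal, and Large, a glycosyltransferase gene, had 13.5. The Large peak is labelled intron 12 of 12 and is its first intron in transcription order. Cadherins had 18 of 29 (62.1%) and 3.49 per 100 kb, with Cdh2, or N-cadherin, at 10.4, Pcdh9 at 8.36 and 39 peaks in Pcdh11x. Presynaptic release genes had 28 of 38 (73.7%, 56.9 to 86.6) and 3.65, with the scaffold Ppfia2 at 10.9, Stxbp5l at 7.24 and 42 peaks in Pclo, the active zone giant.

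Receptors, channels and guidance genes had between 1.12 and 3.26 peaks per 100 kb. Their shares of hosts were above the 25.6% of all protein-coding genes, but the genes were long, with list medians of 100 to 217 kb. Among genes of the annotated table the shares were 65.0% to 84.1%, beside 84.8% of all table genes of 100 to 300 kb. The shares are therefore not read as a trait of these families. Glutamate, GABA and glycine receptor genes had the highest share of hosts, 37 of 46 (80.4%, 66.1 to 90.6), and 3.26 peaks per 100 kb. The AMPA receptor subunits Gria3 and Gria4 had their highest signals, 6.998 and 6.88, and the metabotropic receptor Grm8 the most peaks, 68. Axon guidance genes had 26 of 36 (72.2%) and 2.44, led by the netrin receptor Dcc with 35 peaks up to 12.5, and by Ephb1, an ephrin receptor, with 9.58. Potassium and sodium channels had 27 of 39 (69.2%) and 2.23, with Kcnh7 at 8.05, Kcnma1 at 7.25 and 31 peaks in Kcnh8. Voltage-gated calcium channel subunits had 17 of 25 (68.0%, 46.5 to 85.1) and 2.55. The auxiliary subunit Cacna2d3 had 23 peaks up to 11.2, and the pore gene Cacna1g reached 6.77. Calcium pumps and release channels had 13 of 23 (56.5%) but only 1.12 per 100 kb, with the pump Atp2b1 at 7.63, the exchanger Slc8a1 at 6.98 and 11 peaks in the release channel Ryr2.

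Lists of neuronal and chromaffin cell types had 36.1%, 35.7% and 50.0% of their genes as hosts, and shorter genes. Among chromaffin and sympathetic genes, 13 of 36 were hosts (36.1%, 20.8 to 53.8), with 2.61 peaks per 100 kb. Ddc, which makes dopamine, reached 6.16, the RNA-binding gene Elavl3 4.94, and the prohormone convertase Pcsk2 had 10 peaks. Purkinje genes had 13 of 26 (50.0%) and 2.17, with the potassium channel gene Kcnma1, which is also in the channel list, at 7.25. Granule and cerebellar progenitor genes had 10 of 28 (35.7%) and 1.92, led by Meis1 at 17.6 and by Nfix, a nuclear factor gene, with 15 peaks in 92.8 kb up to 10.1. Of the granule list's 35 peaks 7 (20.0%) were in the upper 10%, and 4 of the 7 lay in Nfix. Of all later-numbered intron peaks 8.40% were in the upper 10%, and of all annotated peaks 10.0%. The share in the upper 10% was 3.03% (1 of 33) in the chromaffin and sympathetic list and 7.92% (8 of 101) in the Purkinje list. In the microtubule and tubulin-folding list it was 9.86% (7 of 71). These counts are small and no intervals were computed for them. Microtubule and tubulin-folding genes had 19 of 36 (52.8%) and 2.08. Besides Tbcd, the dynein subunit Dync1i1 reached 8.73 and Mapre2, which binds microtubule ends, had 22 peaks.

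In 4 lists of other tissues the share of hosts lay between 15% and 25%, with intervals that include the 25.6% of all protein-coding genes. The intervals of the chromaffin (20.8 to 53.8) and granule lists (18.6 to 55.9) include it too, and that of the Purkinje list (29.9 to 70.1) does not. Purkinje genes were longer, with a median of 66.4 kb, beside 18.4 kb in the chromaffin and 14.5 kb in the granule list. Of the Purkinje genes that the annotated table names, 68.4% were hosts, beside 68.0% of all its genes of 50 to 100 kb. The Purkinje share is therefore not read as a trait of that cell type. Median lengths in the 4 lists of other tissues were 9.37 to 13.7 kb, and 8.40% of the table's genes under 20 kb were hosts. Glial genes had 4 of 20 (20.0%, 5.73 to 43.7) and 1.44 per 100 kb, with Slc1a2 and Cspg4 both at 4.03 and 3 peaks in Mbp, the myelin basic protein gene. Liver genes also had 4 of 20 and 1.81, with the complement gene C3 at 4.86 and the urea cycle gene Cps1 at 3.84. Muscle and keratin genes had 5 of 20 (25%) and 1.76, with the cardiac genes Mybpc3 at 4.33 and Myh6 at 4.06. Immune genes had 3 of 20 (15.0%, 3.21 to 37.9) and 0.742, with Spi1, a myeloid transcription factor, at 4.85 and Lcp1 at 3.23. A single one of 58 cytosolic ribosomal protein genes was a host (1.72%, 0.0436 to 9.24), Rpl19 with a signal of 3.01, and their median length was 2.92 kb. These 4 lists held 6, 7, 9 and 3 peaks, too few to set their signal against the 8.40% of all later-numbered intron peaks in the upper 10%. Over the 18 lists the median signal of the peaks ran from 2.83 in Purkinje genes to 3.67 in granule genes, around the 3.00 of all later-numbered intron peaks. Gene length differed between the lists, and density itself rose with length over all genes, so list densities are not set against genes of like length.

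**Figure D5:**
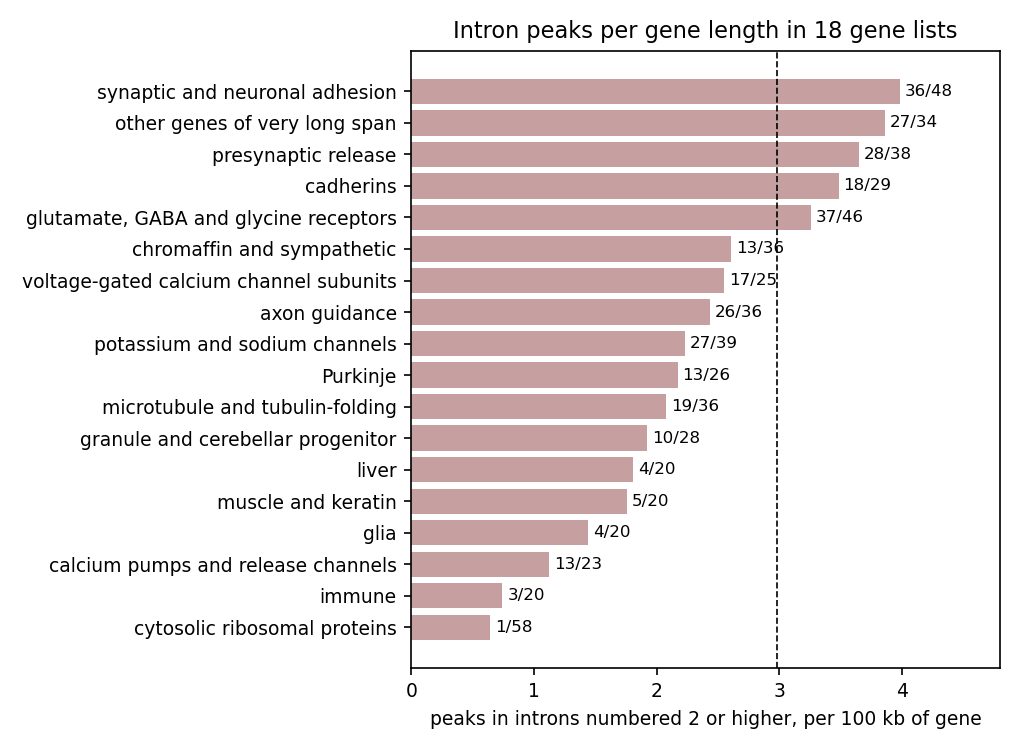
Later-numbered intron peaks per 100 kb of gene (horizontal axis) in 18 gene lists; the fraction at each bar gives hosts among matched members, and the dashed line is the 2.99 over all genes of the annotated table. Synaptic and neuronal adhesion genes have 3.99, and cytosolic ribosomal protein genes have the lowest value, 0.642.

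Later-numbered intron peaks lay in Cacna1a and in 2 of 3 genes earlier reported as α1ACT targets. Over all protein-coding genes 25.6% were hosts. Shares by length have another base, the genes of the annotated table, which leaves out genes with no assigned peak. On that base 32.3% of all genes were hosts. The share was 8.40% below 20 kb, 84.8% at 100 to 300 kb and 97.5% above 300 kb. Grn has 6.105 kb, Cacna1a 224.5 kb and Atp2b2 308.9 kb. At the lengths of Cacna1a and Atp2b2 most genes of the table were hosts, so being a host does not set either apart. Grn falls in the class where 8.40% were hosts, but it is 1 gene with 1 such peak, and nothing more is read from it. Btg1, an antiproliferative gene, had 0, and also 0 in introns numbered 1. The table assigned it 59 annotated peaks of any class. Whether Btg1 has an intron numbered 2 or higher was not examined, so its 0 is not read as an absence. Grn, the progranulin gene, had 1 (chr10:90170557-90170612), in intron 10 of 11, and its signal was 4.26, among 12 peaks of any class assigned to the gene. Atp2b2, the calcium pump gene PMCA2, had 2, or 0.647 per 100 kb, with signals of 3.32 and 3.00. The higher one is labelled intron 18 of 20, which is intron 3 in transcription order. Cacna1a, which holds the α1ACT coding sequence, had 6 peaks with signals from 2.43 to 4.94, or 2.67 per 100 kb beside 2.99 over all genes. Its highest peak (chr19:36655338-36655393) fell in intron 21 of 46. The table assigned 5 of the 6 Cacna1a peaks to the neighbouring immediate early gene Ier2.

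The chromosomes differed in the share of their annotated peaks that lay in later-numbered introns. It was lowest on the X chromosome (684 of 9414, 7.27%, 6.75 to 7.81), followed by chromosome 19 (8.82%, 7.99 to 9.71), and highest on chromosome 12 (578 of 2942, 19.6%, 18.2 to 21.1), followed by chromosome 20 (17.9%, 16.6 to 19.3). Per Mb between the first and last annotated peak there were 4.45 such peaks on X and 10.7 on chromosome 12. Chromosome 4 had a high share (17.6%) but 5.42 per Mb. By signal, 5.56% of the later-numbered intron peaks on X and 11.3% of those on chromosome 19 were in the upper 10%. Gene content per chromosome was not compared.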

How the data were processed

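The deposited peak lists of 4 libraries and the authors' annotated table of α1ACT-only peaks were used, and the 2 input libraries were not analysed here. Samples were grouped by line and antibody as the labels give them, with 1 library per group. The submitters' processing notes name BWA 0.7.5a, FastQC 0.11.2, HOMER, ChIPseeker, DiffBind and the build rn5. For the peak caller, version and settings: not given in the sources used here. All peaks are 56 bp wide. The authors' signal per peak and their −log10 q-value (1.33 to 3.89 in the α1ACT 1804 list) were used as deposited. Distance to the TSS and gene length in bp are also the authors' values, per the file headers. Read depth is unknown.

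Annotated peaks were joined to the peak list by chromosome and start. The host gene came from the transcript named in the annotation, and its strand and model from the table's own gene columns. Symbols came from RefSeq (GRCr8), with 2 of 584 list symbols unmatched. Shares have exact (Clopper-Pearson) 95% intervals. Named genes were the hosts of the 10 highest signals, of the most peaks (10) and of the most peaks per 100 kb among hosts with 10 or more (5), then per list the 2 highest signals and the most peaks, the reported targets, and hosts of peaks shared with another list. Placeholder symbols were skipped in the first 3 parts, other genes were named after their values were seen, and 2 genes that the rule names are not reported here. The members and gene lists were chosen with earlier results of these data known. Alternatives changed the signal minimum, merging, distance, hosts, overlap, neighbour distance, bins and background. The scripts were tested on simulated data. Python 3.11.15, pandas 2.3.3, numpy 2.4.6, SciPy 1.17.1 and matplotlib 3.10.9 were used.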

Additional observations from a re-analysis of the deposited data

How the results depend on the processing

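Of 258 recomputed values of the main results 208 stayed within the limit set for their kind and 50 moved further. For shares and medians the limit was the counting error. Counts, such as the number of hosts, were given no counting error and were judged by a limit on their fold change. Of 455 recomputed peak counts of named genes 88 moved further than that fold limit. Peaks at or above the median signal gave a later-numbered share of 13.3%, medians of 3.87 (later-numbered) and 3.94 (first-numbered), 3.99 at 3 to 10 kb and 3.84 beyond 100 kb, 17.0% in the upper 10%, 40.7% with a neighbour within 1 kb and 0 ribosomal protein hosts. The upper 10% gave 11.4%, medians of 6.00, 6.09, 6.03 and 6.01 in the same order, 1204 hosts, 17.4% in the last number, 39.7% with a neighbour and 14.2% on chromosome 12. These follow in part from the signal minimum itself. Merging peaks within 200 bp gave a median of 3.04, 2.99 beyond 100 kb, and 40.2% with a neighbour. Peaks over 10 kb from a TSS gave a share of 14.2%, 12.8% in intron 2, 13.6% in the last number, 30.1% assigned to another gene, 45.2% with a neighbour, 22.1% on chromosome 12 and 0 ribosomal protein hosts. Without multigene families and placeholders the share was 12.9%, with a neighbour 42.6% and on chromosome 12 17.6%. For these settings the cause was not tested. A distance of up to 200 bp gave 3 shared peaks, a neighbour distance of 10 kb 72.3%, and a farthest bin beyond 200 kb a median of 2.96. With genes that the annotated table names as the background, 87.8% of synaptic adhesion and 100% of very long genes were hosts, which leaves out genes with no assigned peak.

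Chosen after seeing the data were 3 alternatives. Introns in transcription order gave a share of 12.5%, 19.3% in intron 2, 9.43% in the last intron, 31.1% assigned to another gene and 44.4% with a neighbour. Without the Tbcd site 0 peaks were shared with another list. Merging within 1 kb gave a share of 14.9%, medians of 3.18 in later-numbered and 3.18 in first-numbered introns, 3.18 at 3 to 10 kb and 3.18 beyond 100 kb, 11.2% in the upper 10%, 14.0% in intron 2, 15.98% in the last number and 8.22% on X. Giving each run its highest signal raised this share in later-numbered and first-numbered introns, intergenic peaks and promoters: over all merged peaks it was 13.8%, so the later-numbered share stayed below that of all peaks. The upper-10% minimum was not run for the gene lists or for the upper-10% share, nor the neighbour share after 1 kb merging, which that merging fixes. No paired analysis was possible because each group has 1 library. Without replicates or read depth, no value has a biological error.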
